A study of Homo sapiens with 7 samples.

Results

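Interferon-stimulated genes are the antiviral genes that cells switch on when interferon is sensed. Described here are 9 of them, chosen by name from the 32738 gene rows of a count table of HUDEP-2 cells: ISG15, IFITM1, IFITM2, IFITM3, IFI6, IFIH1, DDX58, OAS3 and IRF7. The 9 genes were listed after earlier results of these same libraries were known, among them that a longer interferon list was not called. Their values are therefore a description of these libraries, and their number past a threshold is read only against the share of all genes past it. A fold change with an adequate count was available for 7 of the 9, since IFITM1 and OAS3 had too few counts to test.

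HUDEP-2 is an immortalised human erythroid progenitor line, and all libraries came from this 1 line. All groups carried the lentiviral CRISPR interference system, in which a dead Cas9 fused to a repressor lowers transcription where a guide RNA directs it, and all were then differentiated for 72 h in erythroid medium with 3 IU/ml erythropoietin. Before that every group was expanded with stem cell factor, erythropoietin, dexamethasone and doxycycline, and the differentiation medium also held human plasma and serum, transferrin, heparin and insulin. The groups were guide 1 (2 libraries), guide 2 (2 libraries) and a non-targeting guide (3 libraries), with guides 1 and 2 directed to an enhancer of TMCC2 upstream of its erythroid isoform. Libraries were made by Smart-seq2, which marks neither strand nor single molecules, so the strand of a read in overlapping genes is not known. The labels do not say that replicates were separate cultures, so the spread between them, and every p-value, may be technical. In bulk RNA, fewer cells expressing a gene and less RNA per cell cannot be told apart.

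The guides define the groups and are shown for that reason, 5′ to 3′, in lower case throughout because no base in them is singled out.
guide 1: gtcgtgctgcaggtgaagtg
guide 2: ccatccttcagagtaaacag
non-targeting guide: atcgcgaggacccgttccgcc

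Interferons bind receptors on the cell surface, whose Janus kinases activate transcription factors. These join IRF9 to form a complex that binds interferon-stimulated response elements in the promoters of its target genes. The products include ISG15, a ubiquitin-like modifier that is conjugated to other proteins, the IFITM membrane proteins, which block the entry of enveloped viruses, and sensors of viral RNA, which feed back into the pathway by inducing interferon. Stem and progenitor cells are known to keep some of these genes on without added interferon.

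Promoters of 4 of the genes are shown, chosen for the place of these genes in the results, and no result depends on the sequences. ISG15 and IFI6 had the highest correlation of any pair over the 7 libraries, IFIH1 had the smallest unadjusted p against the non-targeting group, and DDX58 encodes a close relative of the IFIH1 sensor. Each runs from 250 bases before to 50 bases after the transcript start, 5′ to 3′ on the strand of the gene, as given by RefSeq for GRCh38.p14. RefSeq sequences were at hand for 7 of the 9 genes; IFITM2 and IRF7 had none in the table used. Capitals mark matches to GAAANNGAAA, the core of the interferon-stimulated response element, on either strand, with overlapping matches run together.
ISG15, chr1:1013247-1013546, plus strand: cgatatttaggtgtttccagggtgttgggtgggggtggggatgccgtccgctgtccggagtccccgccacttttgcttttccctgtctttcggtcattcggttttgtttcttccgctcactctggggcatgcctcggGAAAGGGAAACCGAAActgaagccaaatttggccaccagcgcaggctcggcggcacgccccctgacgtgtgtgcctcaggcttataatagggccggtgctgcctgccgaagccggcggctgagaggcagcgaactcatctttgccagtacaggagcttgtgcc
IFI6, chr1:27672143-27672442, minus strand: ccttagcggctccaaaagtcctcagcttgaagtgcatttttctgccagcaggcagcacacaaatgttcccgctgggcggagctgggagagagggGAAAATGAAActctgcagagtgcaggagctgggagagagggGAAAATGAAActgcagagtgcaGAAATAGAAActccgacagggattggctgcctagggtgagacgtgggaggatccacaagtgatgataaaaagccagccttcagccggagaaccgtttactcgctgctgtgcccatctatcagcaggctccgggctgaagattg
IFIH1, chr2:162318635-162318934, minus strand: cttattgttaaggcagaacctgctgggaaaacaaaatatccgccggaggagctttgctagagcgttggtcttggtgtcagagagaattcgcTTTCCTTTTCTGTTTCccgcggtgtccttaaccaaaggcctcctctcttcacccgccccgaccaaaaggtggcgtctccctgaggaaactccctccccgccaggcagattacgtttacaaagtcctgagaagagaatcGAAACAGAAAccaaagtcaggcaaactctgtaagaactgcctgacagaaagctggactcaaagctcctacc
DDX58 (current symbol RIGI), chr9:32526147-32526446, minus strand: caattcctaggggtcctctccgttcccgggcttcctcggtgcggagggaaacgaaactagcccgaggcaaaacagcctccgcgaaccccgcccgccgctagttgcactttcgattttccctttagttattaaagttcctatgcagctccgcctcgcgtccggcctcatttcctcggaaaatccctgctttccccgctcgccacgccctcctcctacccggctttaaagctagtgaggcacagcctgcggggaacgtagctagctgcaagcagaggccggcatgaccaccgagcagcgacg

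The ISG15 promoter held 2 overlapping matches, whose first bases lie 113 and 107 bases before the start. The IFI6 promoter held 3 separate matches at 156, 115 and 93 bases before the start, of which the first pair are the same 10 letters in a repeated stretch. The IFIH1 promoter also held 3, of which 2 overlap and lie on the opposite strand, and 1 lies 21 bases before the start. The DDX58 window held 0 matches, which says only that these letters are not in these 300 bases. Of the other promoters at hand, those of IFITM1, IFITM3 and OAS3 held 2 matches each, so that 6 of 7 genes had at least 1. The motif occurred in 996 of all 27305 promoters of the same length (3.65%), and in 19 of 31 promoters (61.3%) of other interferon-stimulated effectors. A match is a description of the letters and was not tested as a binding site. The matches did not separate genes by level or by direction of change: OAS3 and IFITM1 had 2 each and were at or near 0 counts, and IFIH1 and IFI6 had 3 each and differed between the guides in opposite directions.

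Depth was even across the experiment, with 9780800 to 11350113 counts per library. TMCC2, the gene the guides were aimed at, stood at 229 and 219 CPM with guide 1 and at 229 and 260 CPM with guide 2, against 832, 839 and 937 CPM in the non-targeting libraries. CPM here is the count relative to the library size after TMM scaling, a correction for differences in composition. Of 10212 genes tested in edgeR by quasi-likelihood, with p-values adjusted by Benjamini-Hochberg, 2 were called at an adjusted p under 0.05 for both guides against non-targeting (0.0196%), 3 for guide 1 (0.0294%), 1 for guide 2 (0.00979%) and 0 for guide 2 against guide 1 (0%). Non-targeting replicate 1 stood apart: its median correlation with the other libraries was 0.98, where that of each of the others lay between 0.9869 and 0.9894. For the genes of the set, results that rest on it are therefore given with and without it. Erythroid marker genes summed to 261000 to 262000 CPM of total counts with guide 1, 248000 to 253000 with guide 2 and 225000 to 259000 in the non-targeting libraries. All 10 of these erythroid markers were detected, and their part in the results below was not tested.

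ISG15 was the most abundant of the 9 genes per length of transcript, and its level differed more between the guides than between either guide and the controls. It had 365 and 264 counts with guide 1, 209 and 182 counts with guide 2, and 180, 334 and 236 counts in the non-targeting libraries. In CPM these were 36 and 24.7 with guide 1, 19.5 and 17.2 with guide 2, and 15.9, 30.1 and 25.4 in the non-targeting libraries. Guide 1 replicate 1 was the highest and non-targeting replicate 1 the lowest of the 7 libraries, and the non-targeting range spanned nearly all of the others. Group means were 30.3 ± 7.98 CPM with guide 1 and 18.4 ± 1.67 CPM with guide 2 (SD, n = 2 each), against 23.8 ± 7.23 CPM in the non-targeting group (SD, n = 3). The log2 fold change was 0.35 (SE 0.23) for guide 1 and -0.37 (SE 0.24) for guide 2 against non-targeting, and neither was called (adjusted p = 0.877 and 0.999, edgeR). Guide 2 against guide 1 gave -0.72 (SE 0.26, 95% interval -1.27 to -0.17, unadjusted p = 0.0133, adjusted p = 0.983, edgeR), with both guide 2 libraries below both guide 1 libraries.

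Whether ISG15 was called depended on non-targeting replicate 1. Without that library, guide 2 against non-targeting was -0.60 (adjusted p = 0.0348) and guide 2 against guide 1 was -0.72 (adjusted p = 0.0169), both called by edgeR, while guide 1 against non-targeting was 0.12 (adjusted p = 0.949). In the same fit 1.27% of all tested genes were called in the first of these comparisons and 0.317% in the second. The difference between the guides was itself -0.72 with and without that library. Non-targeting replicate 1 enters that comparison only through the filter, the scaling and the spread shared by the groups. A fit of the guide 1 and guide 2 libraries alone also called ISG15 (-0.72, adjusted p = 0.032, edgeR), together with 0.191% of the genes tested in it. Over the alternatives the adjusted p for guide 2 against guide 1 ranged from 0.0169 to 1. Leaving out guide 1 replicate 1 moved the difference to -0.43.

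**Figure D1:**
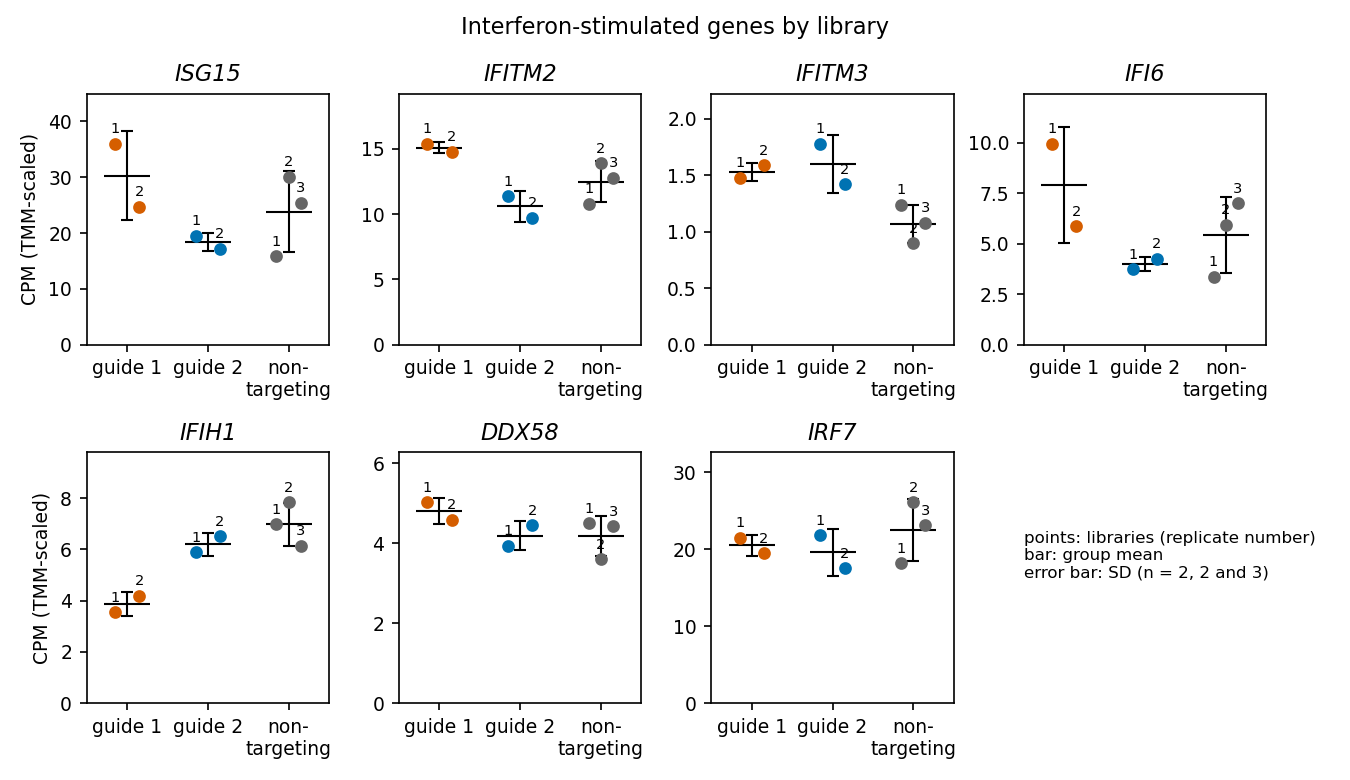
Level of each tested interferon-stimulated gene in TMM-scaled CPM (vertical axes, linear and starting at 0) in the guide 1, guide 2 and non-targeting libraries; points are libraries with their replicate numbers, bars are group means and error bars SDs (n = 2, 2 and 3). ISG15, IFITM2 and IFI6 are highest in guide 1 replicate 1 and IFIH1 is lowest with guide 1, at 3.55 and 4.2 CPM.

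IFI6 encodes a small membrane protein of mitochondria and endoplasmic reticulum that limits apoptosis and flavivirus replication. It had 101 and 63 counts with guide 1, 40 and 45 counts with guide 2, and 38, 66 and 65 counts in the non-targeting libraries. Its levels were 9.95 and 5.88 CPM with guide 1, 3.74 and 4.25 CPM with guide 2, and 3.36, 5.94 and 7 CPM in the non-targeting libraries. As for ISG15, guide 1 replicate 1 was highest and non-targeting replicate 1 lowest, both guide 2 libraries lay below both guide 1 libraries, and the non-targeting libraries overlapped with each guide. The means were 7.92 ± 2.87 CPM with guide 1 and 3.99 ± 0.359 CPM with guide 2, against 5.43 ± 1.88 CPM in the non-targeting group. Guide 1 against non-targeting was 0.55 on the log2 scale (SE 0.30), and guide 2 against non-targeting was -0.43 (SE 0.32). Guide 2 against guide 1 was -0.98 (SE 0.34, 95% interval -1.71 to -0.25, unadjusted p = 0.0117, edgeR), the largest difference between the guides among the 7 tested genes. It did not pass adjustment (adjusted p = 0.983), nor without non-targeting replicate 1 (adjusted p = 0.0649), and it was -0.56 without guide 1 replicate 1.

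The IFITM genes lie together on chromosome 11 and are close copies of each other, so their counts are uncertain one by one. IFITM2 and IFITM3, which act mainly in endosomes, share 372 of 396 aligned coding bases (93.9%), with 99 identical bases in a row. A stretch of 90 coding bases, the first of that length aligned without a gap, is shown for both. Capitals mark the 7 single positions at which they differ, by which reads that cross them could be assigned. The sequences come from GENCODE v29 transcripts on GRCh38, in the direction of the transcript.
IFITM2, coding bases 21 to 110, plus strand of chromosome 11: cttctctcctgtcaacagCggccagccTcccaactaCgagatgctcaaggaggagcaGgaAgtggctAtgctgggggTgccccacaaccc
IFITM3, coding bases 24 to 113, minus strand of chromosome 11: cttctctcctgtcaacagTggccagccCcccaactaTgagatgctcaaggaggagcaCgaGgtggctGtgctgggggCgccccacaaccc

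Of all 50-base windows in the principal transcripts, 42.3% of those of IFITM1, 15.8% of those of IFITM2 and 20.3% of those of IFITM3 occur identically in a transcript of another gene. The other 6 genes share none. IFITM1 and IFITM2 also overlap by 351 exonic bases on the same strand in this annotation, and IFITM3 overlaps a long non-coding RNA on the other strand by 287 bases. ISG15 overlaps a pseudogene on the other strand by 36 bases. How such reads were counted is not given in the sources used here, and the authors' build was GRCh37, so these shares describe the sequences and not the counting.

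IFITM1, whose protein sits mainly at the cell surface, had 0 counts in all 7 libraries. At the depth of these libraries a count of 0 allows up to 3 counts, or 0.265 to 0.323 CPM per library, for counting error alone. IFITM2 had 156 and 158 counts with guide 1, 122 and 103 counts with guide 2, and 122, 154 and 119 counts in the non-targeting libraries. Its levels were 15.4 and 14.8 CPM with guide 1, 11.4 and 9.72 CPM with guide 2, and 10.8, 13.9 and 12.8 CPM in the non-targeting libraries. Both guide 1 libraries were therefore above all others, and guide 2 overlapped with the non-targeting group. The means were 15.1 ± 0.429 CPM with guide 1 and 10.6 ± 1.19 CPM with guide 2 (SD, n = 2 each), against 12.5 ± 1.57 CPM in the non-targeting group (SD, n = 3). On the log2 scale IFITM2 differed from the non-targeting group by 0.27 (SE 0.18) with guide 1 and by -0.24 (SE 0.18) with guide 2. Guide 2 against guide 1 gave a log2 fold change of -0.51 (SE 0.20, 95% interval -0.93 to -0.09, unadjusted p = 0.0199, adjusted p = 0.983, edgeR).

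IFITM3 was sparse, with 15 and 17 counts with guide 1, 19 and 15 counts with guide 2, and 14, 10 and 10 counts in the non-targeting libraries. These are 1.48 and 1.59 CPM with guide 1, 1.78 and 1.42 CPM with guide 2, and 1.24, 0.901 and 1.08 CPM in the non-targeting libraries. All 4 guide libraries were above all 3 non-targeting libraries, and IFITM3 was the 1 gene of the 7 for which this held for the guides together. Its log2 fold change for both guides was 0.54 (SE 0.33) and was not called (adjusted p = 0.998, edgeR). It was 0.51 (SE 0.39) with guide 1 and 0.57 (SE 0.39) with guide 2, and the difference between the guides was 0.06 (SE 0.41). Non-overlap of all guide libraries with the non-targeting libraries was found for 5.4% of all tested genes.

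Among the sensors, IFIH1 encodes MDA5, which recognises long double-stranded RNA in the cytoplasm. It had 36 and 45 counts with guide 1, 63 and 69 counts with guide 2, and 79, 87 and 57 counts in the non-targeting libraries. Its levels were 3.55 and 4.2 CPM with guide 1, 5.89 and 6.51 CPM with guide 2, and 6.98, 7.84 and 6.14 CPM in the non-targeting libraries. Both guide 1 libraries were lower than every other library, and guide 2 overlapped with the non-targeting range. The means were 3.87 ± 0.465 CPM with guide 1 and 6.2 ± 0.44 CPM with guide 2, against 6.98 ± 0.847 CPM in the non-targeting group. Guide 1 against non-targeting gave -0.85 (SE 0.23, 95% interval -1.34 to -0.36), with an unadjusted p of 0.00232, which ranked 22nd of the 10212 genes in that comparison, and an adjusted p of 0.877 by edgeR. Guide 2 against non-targeting gave -0.17 (SE 0.22) and guide 2 against guide 1 gave 0.67 (SE 0.25, 95% interval 0.14 to 1.21, unadjusted p = 0.0173, adjusted p = 0.983, edgeR). IFIH1 thus had the opposite sign to ISG15, IFI6 and IFITM2 with guide 1 and between the guides. Against non-targeting with guide 2, IFIH1 and these genes were all negative. Without non-targeting replicate 1 the guide 1 value of IFIH1 was -0.86 (adjusted p = 0.126, edgeR).

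DDX58 encodes RIG-I, the sensor of short RNA with a 5′ triphosphate. It had 51 and 49 counts with guide 1, 42 and 47 counts with guide 2, and 51, 40 and 41 counts in the non-targeting libraries. In CPM, DDX58 stood at 5.02 and 4.58 with guide 1, 3.93 and 4.44 with guide 2, and 4.5, 3.6 and 4.42 in the non-targeting libraries. Guide 1 was above the rest by a small margin and guide 2 overlapped with the non-targeting group. The means were 4.8 ± 0.316 CPM with guide 1 and 4.18 ± 0.36 CPM with guide 2, against 4.17 ± 0.497 CPM in the non-targeting group. The log2 fold changes were 0.20 (SE 0.24) with guide 1, 0.00 (SE 0.24) with guide 2 and -0.20 (SE 0.26) between the guides. DDX58 and IFIH1, which signal through the same adaptor, therefore had fold changes of opposite sign with guide 1 and between the guides, though neither gene was called.

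OAS3, on chromosome 12, encodes an enzyme that makes the 2′-5′ oligoadenylate activator of RNase L. It had 3 and 0 counts with guide 1, 0 and 0 counts with guide 2, and 2, 1 and 0 counts in the non-targeting libraries. These 6 counts in all allow no fold change. IRF7, on chromosome 11, the transcription factor that drives the later wave of interferon genes, had 218 and 209 counts with guide 1, 233 and 185 counts with guide 2, and 206, 290 and 214 counts in the non-targeting libraries. IRF7 levels were 21.5 and 19.5 CPM with guide 1, 21.8 and 17.5 CPM with guide 2, and 18.2, 26.1 and 23.1 CPM in the non-targeting libraries, and all 3 groups overlapped. The means were 20.5 ± 1.38 CPM and 19.6 ± 3.06 CPM with guides 1 and 2, against 22.5 ± 4 CPM in the non-targeting group. IRF7 differed by -0.13 (SE 0.18) with guide 1, -0.19 (SE 0.18) with guide 2 and -0.06 (SE 0.20) between the guides on the log2 scale, and was not called in any comparison (adjusted p from 0.915 to 0.999, edgeR).

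**Figure D2:**
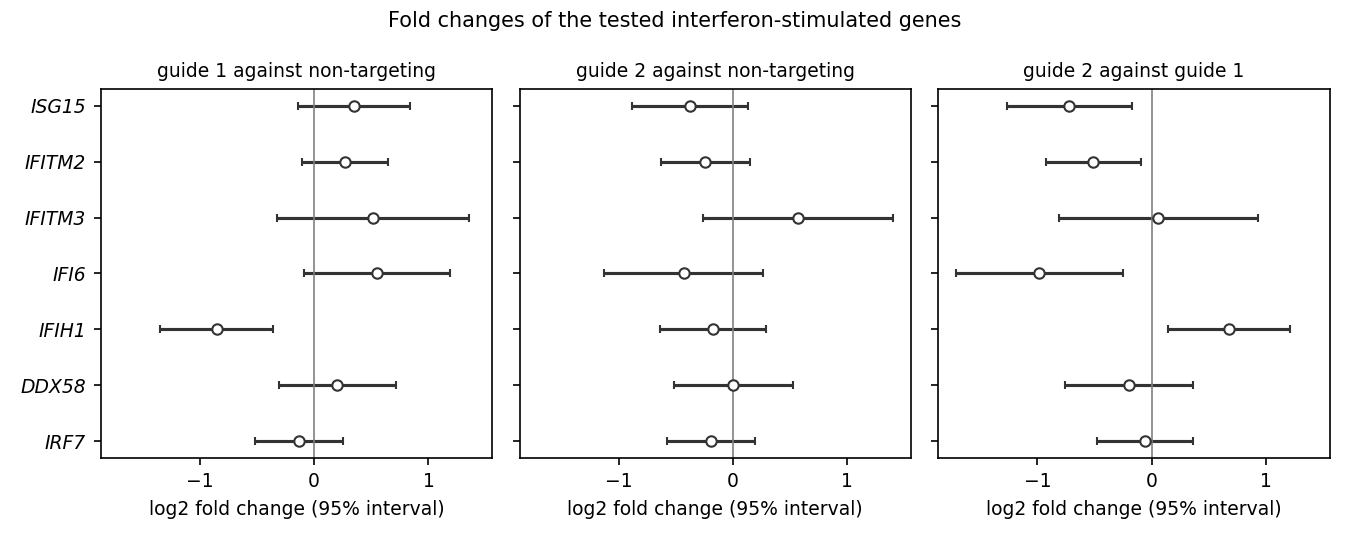
Log2 fold change (horizontal axis) of each tested interferon-stimulated gene with its 95% interval from the edgeR fit, for guide 1 against non-targeting (left), guide 2 against non-targeting (middle) and guide 2 against guide 1 (right). No gene passed an adjusted p under 0.05; the intervals of IFIH1 on the left (-1.34 to -0.36) and of ISG15, IFITM2, IFI6 and IFIH1 on the right lie to 1 side of 0.

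Per length of the principal transcript, the order of the non-targeting means was ISG15 (33.5 CPM per kb), IFITM2 (14), IRF7 (11), IFI6 (6.61), IFIH1 (1.94), IFITM3 (1.32), DDX58 (0.958), OAS3 (0.0132) and IFITM1 (0). In the non-targeting libraries neighbours in this order did not overlap except for IFITM2 and IRF7, and for OAS3 and IFITM1, which were at or near 0. With guide 2, IFITM3 (1.98) stood above IFIH1 (1.72) and the libraries of that pair overlapped. With guide 1 the order below IFI6 was IFITM3 (1.89), DDX58 (1.1) and IFIH1 (1.08), and overlap was found between IRF7 and IFI6 and between DDX58 and IFIH1. In every group the first 4 genes lay above the last 5 with no overlap. Summed over the 9 genes, levels were 93.1 and 75.2 CPM with guide 1, 68.1 and 61 CPM with guide 2, and 61.1, 88.4 and 79.9 CPM in the non-targeting libraries, so that guide 1 replicate 1 lay above and guide 2 replicate 2 just below the control range.

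Counted over the 7 tested genes, 0 were called by edgeR in any of the 4 comparisons, and 0 by DESeq2, which called 4, 6, 3 and 2 of all genes for both guides, guide 1, guide 2 and guide 2 against guide 1. For both guides against non-targeting, 4 of 7 log2 fold changes were positive with a median of 0.02, beside a median of -0.01 over all tested genes, and 1 gene (IFIH1, -0.51) had an unadjusted p under 0.05, where 4.19% of all genes did. With guide 1, 5 of 7 were positive with a median of 0.27 (all genes -0.01), 1 had an unadjusted p under 0.05 (all genes 4.78%), and 4 did not overlap with the non-targeting libraries (all genes 21.6%). With guide 2, 2 of 7 were positive with a median of -0.19 (all genes -0.02), 0 had an unadjusted p under 0.05 (all genes 2.75%), and 1 did not overlap (all genes 15%). The comparisons with non-targeting share their control libraries. Without non-targeting replicate 1 the medians were -0.20 for both guides, 0.17 with guide 1 and -0.33 with guide 2, beside 0.00, 0.00 and 0.01 over all tested genes, so the median for both guides changed sign.

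Leaving out that library also moved single genes, of which ISG15 with guide 2 was the 1 called against non-targeting by edgeR. For guide 1 against non-targeting, IFI6 was then 0.29, IFITM2 0.17, IFITM3 0.64, DDX58 0.27 and IRF7 -0.27, with adjusted p from 0.695 to 0.936. For guide 2 against non-targeting, IFI6 was -0.69, IFITM2 -0.34, IFITM3 0.69, IFIH1 -0.18, DDX58 0.07 and IRF7 -0.33, with adjusted p from 0.179 to 0.946. For both guides, ISG15 was -0.24, IFI6 -0.20, IFITM2 -0.08, IFITM3 0.66, IFIH1 -0.52, DDX58 0.17 and IRF7 -0.30, with adjusted p from 0.306 to 0.892. With all libraries, both guides gave 0.06 (SE 0.26) for IFI6 and 0.02 (SE 0.15) for IFITM2. Each was smaller than its SE, so the turn to negative values is no evidence of a change of direction.

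Guide 2 against guide 1 was the comparison in which most of the genes had an unadjusted p under 0.05. Of the 7, 2 were positive and 5 negative, with a median of -0.20 beside 0.00 over all genes. An unadjusted p under 0.05 was reached by 4, namely ISG15, IFI6, IFITM2 and IFIH1, where 2.86% of all tested genes did. The guide 2 and guide 1 libraries did not overlap for 5 of the 7, but with 2 libraries in each group that was so for 44.1% of all genes. Since the genes were listed with earlier results of these libraries known and several of them follow each other, the 4 are not independent.

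The base composition of transcripts moved with these differences. The level of a gene relative to its mean over the 7 libraries was correlated across 9424 genes with its GC content, with Spearman coefficients of 0.41 and 0.27 in the guide 1 libraries, 0.08 and -0.31 in the guide 2 libraries, and -0.68, 0.42 and 0.32 in the non-targeting libraries. Non-targeting replicate 1 and guide 2 replicate 2 were thus lower for GC-rich genes. They were the libraries with the lowest ISG15, IFITM2 and IRF7. IFI6 was lowest in non-targeting replicate 1 (3.36 CPM) and guide 2 replicate 1 (3.74 CPM). IFITM3 was lowest in non-targeting replicates 2 (0.901 CPM) and 3 (1.08 CPM). Whether GC content caused these levels was not tested. Fold changes for guide 2 against guide 1 correlated with GC content at -0.39, and for guide 1 against non-targeting at 0.42. ISG15 (median GC content 64.1% over its transcripts), IFITM2 (56.9%) and IFI6 (56.2%) are GC-rich, and IFIH1 (41.7%) and DDX58 (40.2%) are not. In GC bins around these values, the median gene differed between guide 2 and guide 1 by -0.12 (60 to 65%), -0.11 (55 to 60%) and 0.09 (40 to 45%), in the direction of ISG15, IFITM2, IFI6 and IFIH1 but smaller. After a GC content correction, chosen after seeing the data, guide 2 against guide 1 was -0.60 for ISG15, -0.89 for IFI6, -0.42 for IFITM2 and 0.57 for IFIH1, and guide 1 against non-targeting was -0.73 for IFIH1. None of these was called by edgeR (adjusted p of 0.767, 0.837, 0.951, 0.951 and 0.324). DDX58 and IRF7, at 40.2% and 66.9% GC, had values between the guides of -0.20 and -0.06, which the correction moved to -0.33 and 0.05. IFITM3, at 60.5% GC, had 0.06 between the guides and 0.16 after the correction, against the direction of its bin, as did DDX58.

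**Figure D3:**
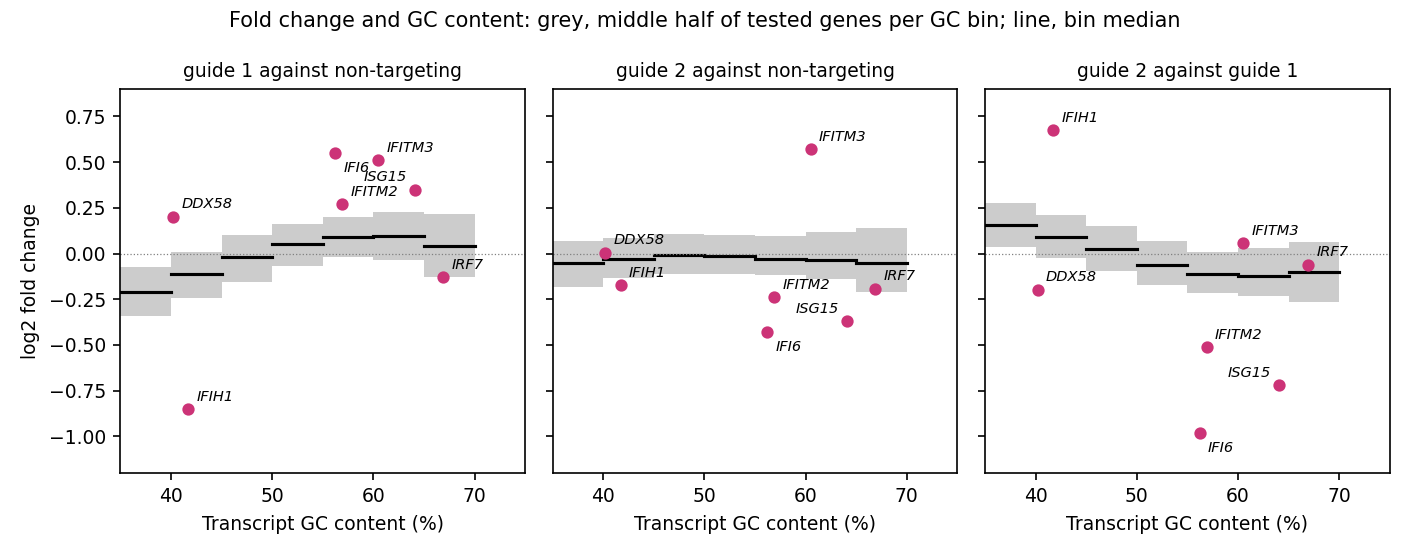
Log2 fold change (vertical axis) of the tested interferon-stimulated genes (points) against median transcript GC content in percent (horizontal axis), over grey bands for the middle 50% of tested genes in each GC bin with the bin median as a line; the outermost bins, under 40% and over 65%, are drawn from 35 and to 70. In guide 2 against guide 1 the bin medians run from 0.155 at low GC to -0.122 at 60 to 65% GC, and IFI6 (-0.98), ISG15 (-0.72), IFITM2 (-0.51) and IFIH1 (0.67) lie outside the bands on the side of their bin median, DDX58 (-0.20) and IFITM3 (0.06) outside on the other side, and IRF7 (-0.06) within.

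Across the 7 libraries ISG15 and IFI6 varied together, with a Pearson r of 0.93 and a Spearman rho of 0.93 on log2 CPM, and ISG15 and IFITM2 likewise, with 0.91 and 0.86. Within groups, after subtraction of the group means, r was 0.87 for both pairs, and it was 0.81 and 0.88 after leaving out the 2 libraries farthest from the ISG15 median. Other pairs were higher within groups, namely IFITM2 and IRF7 (1.00) and ISG15 and IRF7 (0.90), whose r over all libraries was 0.57 and 0.69. Deviations in a group of 2 libraries mirror each other, so few values behind each within-group r are independent. IFIH1 had an r of -0.51 with ISG15 and -0.62 with IFI6, which was -0.16 and -0.41 within groups. Without the 2 libraries farthest from the ISG15 and the IFI6 median, respectively, r was 0.14 and -0.05. Leaving out the extremes narrows the range of a gene, so these values cannot show how many libraries the negative r rests on. These are descriptions of 7 libraries that share scaling, depth and GC composition, taken from 21 pairs, with no test. The genes nearest in pattern to the mean standardised level of the 7 tested genes were C10orf54 (r 0.99), FUOM (0.989), KLF13 (0.986), BRMS1 (0.981) and RNH1 (0.981), over 7 libraries and chosen from all tested genes. C10orf54, for example, had 37.1 and 30 CPM with guide 1, 26.1 and 22.7 CPM with guide 2, and 23.7, 28.7 and 30.2 CPM in the non-targeting libraries, an order that places guide 1 replicate 1 on top. Of the genes themselves, ISG15 (0.97), IFI6 (0.95) and IFITM2 (0.93) were nearest to that mean, while IFIH1 was at -0.66 and IFITM3 at -0.09. Each of the 7 genes is part of that mean, which raises its r, so these values cannot be compared with those of the other genes.

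The rest of the interferon pathway was examined through 113 further genes in 7 lists, of which 73 were tested. In the fit with all libraries 0 of 73 were called by edgeR, and 0 by DESeq2, in each of the 4 comparisons. Guide 1 gave 45 positive and 28 negative values with a median of 0.03, guide 2 gave 22 and 51 with a median of -0.05, and guide 2 against guide 1 gave 27 and 46 with a median of -0.09. Of all tested genes, 48.5% were positive with guide 1, 44.7% with guide 2 and 50.3% between the guides. Counts by direction in the single lists below are read only against these shares. Unadjusted p-values under 0.05 by edgeR numbered 4 with guide 1 (IRF9, JAK1, JAK2 and TMEM173), 1 with guide 2 (IRF9), 2 between the guides (IFIT1 and SP110) and 2 for both guides together (IRF9 and JAK2). Over all tested genes the shares were 4.78% with guide 1, 2.75% with guide 2, 2.86% between the guides and 4.19% for both guides, so these counts are close to or below the background. Apart from JAK1, these genes are named after their values were seen. Without non-targeting replicate 1, 1 of 72 was called, IFI27 in guide 2 against non-targeting (-0.30, SE 0.07, adjusted p = 0.0332, edgeR). That is 1.39% of the listed genes, near the 1.27% of all tested genes called there.

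Of 12 interferon ligands, 10 had 0 counts in every library and none was abundant enough to test. The highest library count was 1 for IFNB1 and 2 for IFNK, so no listed ligand passed 2 counts in a library. Of 12 receptor and JAK-STAT genes 11 were tested, 5 positive and 6 negative with guide 1, 4 and 7 with guide 2, and 8 and 3 between the guides. The kinase gene JAK1 averaged 53.4 CPM with guide 1 and 66.3 CPM with guide 2, against 69.4 ± 8.97 CPM in the non-targeting group (SD, n = 3), at -0.38 and -0.07 on the log2 scale. TYK2, the kinase on the type I receptor, was at 0.05 with each guide. In this list IRF9, a DNA-binding subunit of the complex that type I interferon activates, had the smallest unadjusted p for both guides (0.55, SE 0.16, unadjusted p = 0.0046, adjusted p = 0.998, edgeR). Its levels were 9.06 and 10.6 CPM with guide 1 and 10.8 and 10.7 CPM with guide 2, against 6.62, 8.02 and 6.36 CPM in the non-targeting libraries, with every guide library above every control. Such non-overlap was found for 5.4% of all tested genes, and in the other lists also for PARP14 and PSMB8. JAK2, the kinase of the erythropoietin receptor as well as of the interferon gamma receptor, was -0.60 with guide 1 (unadjusted p = 0.00265, adjusted p = 0.877, edgeR). It had 31.7 and 30.9 CPM with guide 1, against 58.6, 43.1 and 40.9 CPM in the non-targeting libraries. The value of 58.6 CPM is that of non-targeting replicate 1, the library that stood apart. The JAK2 fold change rests in part on it and is not given here without it.

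Of 19 sensors and adaptors 10 were tested, 7 positive and 3 negative with guide 1, 4 and 6 with guide 2, and 2 and 8 between the guides. MAVS, the mitochondrial adaptor of the IFIH1 and DDX58 sensors, had log2 fold changes of 0.11 with guide 1, -0.07 with guide 2 and -0.18 between the guides. TBK1, the kinase below it, had -0.32 with guide 1, -0.15 with guide 2 and 0.17 between the guides. TRAF6, a ubiquitin ligase of the pathway, had 0.04 with guide 1, 0.12 with guide 2 and 0.08 between the guides, and none of these was called. Of 7 other interferon regulatory factors 4 were tested: IRF1 stood at 0.15 and -0.07 with guides 1 and 2, IRF2 at -0.20 and -0.04 and IRF3, the first factor to respond to the sensors, at 0.03 and -0.16.

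Other effectors, the list nearest in kind to the 9 genes, had 40 members and 31 tested. With guide 1, 21 were positive and 10 negative with a median of 0.05, with guide 2, 9 and 22 with a median of -0.04, and between the guides 8 and 23 with a median of -0.11, and 0 passed adjustment. RSAD2, which encodes viperin, was the most abundant of them with 519 CPM with guide 1 and 543 CPM with guide 2, against 569 ± 31.5 CPM in the non-targeting group, and its fold changes were -0.13 and -0.07 on the log2 scale. ADAR, an editor of double-stranded RNA, averaged 211 and 194 CPM with guides 1 and 2, against 191 ± 12 CPM in the non-targeting group (log2 fold changes 0.14 and 0.02). IFI27, one of the genes most strongly induced by interferon in many cells, averaged 251 and 218 CPM with guides 1 and 2, against 243 ± 49 CPM in the non-targeting group (0.05 and -0.15). IFIT1, which binds viral RNA ends, differed by -0.83 between the guides (SE 0.37, unadjusted p = 0.0432, adjusted p = 0.983, edgeR). It stood at 13.2 and 5.23 CPM with guide 1, 5.8 and 4.53 CPM with guide 2, and 6.98, 7.93 and 4.42 CPM in the non-targeting libraries, so that guide 1 replicate 1 was far above the rest and the guides overlapped. Among classical targets, no library held more than 3 counts of MX1 or OAS2, or more than 10 of OAS1.

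The enzymes that attach ISG15 to proteins, with the negative regulators of the pathway, gave 5 tested of 9, 4 positive with guide 1 and 3 with guide 2. UBE2L6, the conjugating enzyme for ISG15, was at 0.05 and -0.08 on the log2 scale with guides 1 and 2, and HERC6, the main ISG15 ligase of mice, at -0.06 and 0.18. PIAS1, a negative regulator of the pathway, was at 0.08 and 0.09. For USP18, the protease that removes ISG15, the highest library count was 8. Of 14 antigen presentation genes 12 were tested, 5 positive and 7 negative with guide 1 and 1 and 11 with guide 2. B2M and TAPBP, the light chain and a loading factor of class I molecules, had log2 fold changes of -0.10 and -0.03 with guide 1 and of -0.05 and -0.04 with guide 2.

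**Figure D4:**
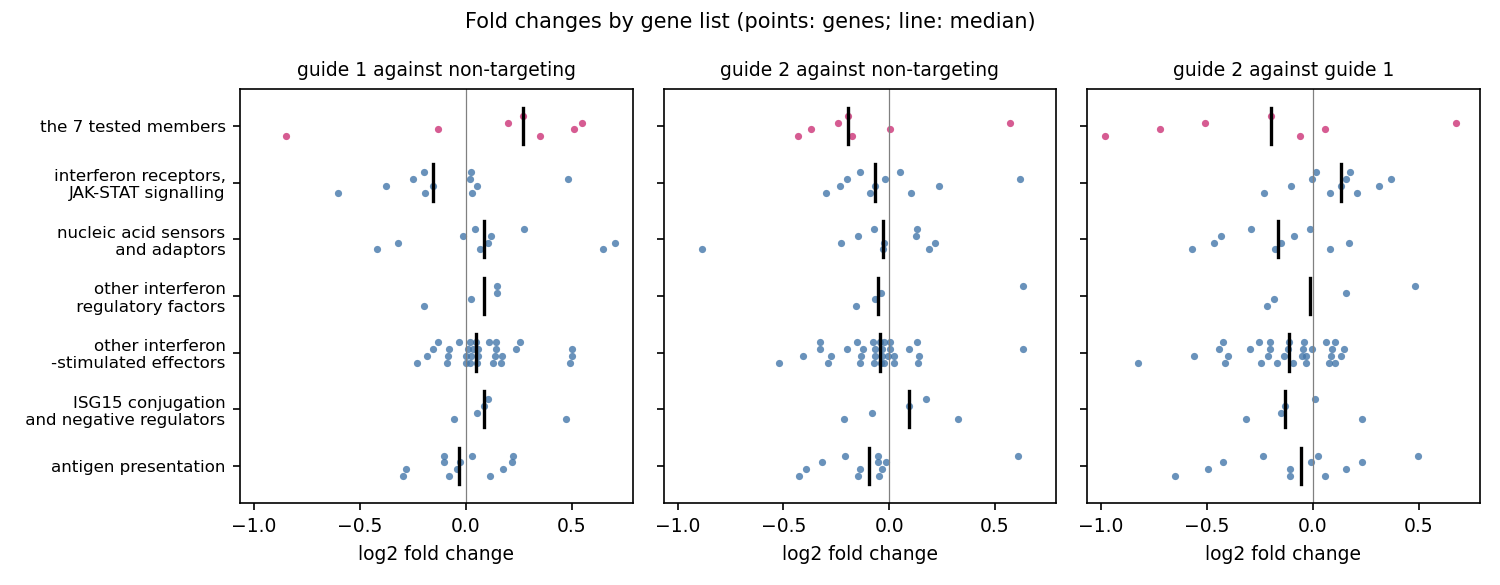
Log2 fold changes (horizontal axes) of the 7 tested genes of the set (top row) and of the tested genes of 6 pathway lists (rows below), with 1 point per gene and a black line at each median, for the 3 comparisons named above the panels. The medians of the 31 other effectors lie at 0.05, -0.04 and -0.11, nearer to 0 than those of the 7 genes at 0.27, -0.19 and -0.20. All lists were chosen with earlier results of these libraries known, and a median of 7 genes varies more than that of 31. The contrast was not tested.

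Markers of other cell types that carry interferon-stimulated genes were low or at 0. The monocyte and neutrophil markers FCGR3A and ITGAM and the plasmacytoid dendritic marker TCF4 had enough counts to test. Their means over all libraries were 1.62, 0.865 and 1.74 CPM after TMM scaling, where IFITM3 of the set had 1.35 CPM. The 7 lymphocyte markers summed to 0.765 to 0.828 CPM of total counts with guide 1, 0.777 to 1.14 with guide 2 and 0.376 to 1.12 in the non-targeting libraries, with CD3E, CD2, MS4A1 and NKG7 at 0. The 9 monocyte and neutrophil markers summed to 2.97 to 3.68 CPM with guide 1, 2.77 to 4.95 with guide 2 and 2.91 to 4.23 in the non-targeting libraries, with S100A8, S100A9 and MPO at 0. The 4 plasmacytoid dendritic cell markers, of the cells that make most interferon in blood, summed to 1.53 to 2.12 CPM with guide 1, 1.62 to 2.33 with guide 2 and 0.818 to 2.47 in the non-targeting libraries, with CLEC4C at 0. The 5 fibroblast and endothelial markers with a row summed to at most 0.368 CPM in a library, with COL1A2, DCN and CDH5 at 0. In each of the 3 blood lists the ranges of the groups overlapped, and the part of such cells in the values of the 9 genes was not tested.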

How the data were processed

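The deposited table holds the authors' raw counts of reads, unscaled, for 32738 gene symbols in 7 libraries, per the file headers. STAR and the build GRCh37 (hg19) are named in the submitters' processing notes; how reads were counted, and with which annotation and strand setting, is not given in the sources used here. The 9 genes and the pathway and marker lists were chosen with earlier results of these data known. A quasi-likelihood model of the 3 groups, with no other term, was fitted in edgeR 4.0.16 (R 4.3.3) to the 10212 genes kept by filterByExpr at a minimum count of 10. It used TMM scaling over the 7 libraries and left 4 residual degrees of freedom, with a biological coefficient of variation of 12.5%. P-values are two-sided, with Benjamini-Hochberg adjustment over all genes tested. Named pathway genes are the 3 tested genes of highest mean CPM in each list, and any called there; of these, 2 are not reported here. Others are named as chosen after their values were seen. Log2 CPM for correlations used a prior count of 2. GC content came from GENCODE v29 and matched 92.3% of tested genes by symbol. Alternatives were RLE, upper-quartile and total-count scaling, no filter, DESeq2 1.42.0, a replicate block, a fit of the compared groups alone, each library left out and, chosen after seeing the data, a GC content correction. The scripts were tested on simulated data. Without molecular identifiers, the limit that a count of 0 allows covers counting error only.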

Additional observations from a re-analysis of the deposited data

How the results depend on the processing

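Over the alternatives tried, 394 of 413 log2 fold changes of the tested genes kept their direction, 19 reversed and 3 became called, all ISG15. Against 0 of 7 genes called by edgeR with all libraries, 1 (ISG15) was called without non-targeting replicate 1 in guide 2 against non-targeting and in guide 2 against guide 1, a range of 0 to 1 over the left-out libraries, and 1 (ISG15) was called in guide 2 against guide 1 when only the 2 groups compared were fitted, where 19 of all genes were called. With all libraries ISG15 for both guides was -0.01 (SE 0.19). It was 0.01 with total counts, 0.00 with upper-quartile scaling, 0.05 with the replicate block and -0.24 to 0.20 with a library left out. IRF7 in guide 2 against guide 1 was 0.00 with total counts, 0.05 with the GC correction and -0.23 to 0.09 with a library left out. IFITM2 for both guides was -0.02 with the GC correction and -0.08 to 0.10 with a library left out. With a library left out, IFI6 for both guides ranged from -0.20 to 0.27, DDX58 for guide 2 against non-targeting from -0.09 to 0.09, and IFITM3 for guide 2 against guide 1 from -0.11 to 0.21. The cause of these reversals was not tested.

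Counts of all genes called for both guides, guide 1, guide 2 and guide 2 against guide 1 were 2, 3, 1 and 0. They were 8, 19, 4 and 2 with no filter, 4, 6, 3 and 2 with DESeq2 and 9, 18, 3 and 2 with the GC correction. With a library left out they ranged from 1 to 53, 1 to 59, 1 to 128 and 0 to 32, each highest without non-targeting replicate 1. Deviations from the group means of same-numbered libraries correlated at r from -0.19 to 0.03. In a group of 2 libraries the deviations mirror each other, so few of these values are independent. They cannot decide whether the numbers mark pairs. With the replicate block 1, 2, 1 and 1 genes were called, and 0 of the 7. Where leaving out a library left 1 in a group, that library was assumed to vary like the others. IFITM3 had 10 to 19 counts per library and OAS3 at most 3, so only large differences could be seen in them.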
